A study of Mus musculus with 35 samples.

Results

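A set of 9 genes that act in homologous recombination and in the Fanconi anaemia pathway was followed through postnatal maturation of mouse microglia. The members were *Brca1*, *Brca2*, *Rad51ap1*, *Fanca*, *Fancd2*, *Fanci*, *Blm*, *Exo1* and *Chek1*, chosen by name from the rows of the mRNA count table. Earlier results of these data were known at that choice. All 9 of 9 members were found among the 55401 genes of that table, and all 9 were among the 17612 genes that reached a level of 0.5 CPM (counts scaled to the size of the library) in at least 5 mice and were tested. CD45+ microglia were isolated by immunopanning from the whole brains of wild-type C57BL/6 mice, with 1 mRNA library per mouse and no treatment. The ages were postnatal day 6 (P6; 4 females and 6 males), P15 (6 and 6) and 8 weeks (6 and 6), which gave 34 mice. A further P6 female, number 6, was left out of the comparisons because the study removed it as an outlier. CD45 is also carried by other leukocytes, so the label was checked with markers of microglia and of other leukocytes.

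Homologous recombination repairs a DNA double-strand break or a broken replication fork by copying the sister chromatid, and it is therefore used mostly by cells that have replicated their DNA. The break ends are first resected by nucleases such as EXO1, with BRCA1 promoting this step, BRCA2 prepares the single-stranded DNA for the search for the matching strand, RAD51AP1 stimulates strand invasion, and BLM helps to resect ends and to take apart joined DNA molecules. The Fanconi pathway handles crosslinks between the DNA strands: a core complex that contains FANCA attaches ubiquitin to the pair of FANCD2 and FANCI (the ID complex), which then directs the cutting of the crosslink. CHK1, encoded by *Chek1*, is the kinase that carries the replication stress signal from ATR and holds the cell cycle. Microglia divide in the first weeks after birth and renew slowly in the adult brain.

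All 9 genes were lower at P15 and at 8 weeks than at P6, and no mouse of an older age reached the lowest P6 mouse for any of them. After P15 they parted: *Brca1*, *Rad51ap1*, *Fanca*, *Fanci*, *Exo1* and *Chek1* fell again, while for *Brca2*, *Fancd2* and *Blm* no difference between P15 and 8 weeks was found. The gene that fell most was *Fanca*, 28.6-fold from P6 to 8 weeks, and the one that fell least was *Blm*, 3.43-fold. In RNA from a whole population, fewer cells that express a gene and less of its RNA per cell cannot be told apart.

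The windows upstream of 4 of the genes are shown as examples of windows that hold a word searched for: 3 hold CCAAT and that of *Brca2* holds GCGGGAA. The *Blm* window also holds CCAAT and is not shown, since it lies partly inside the annotated gene. The windows of *Fanci* and *Chek1* lie wholly inside their annotated genes. They hold none of the words searched for and are included in the counts below. Of the 9 genes, 7 had an entry in the RefSeq promoter table of build GRCm38.p6, and *Fancd2* and *Exo1* did not. Each window holds the 250 bases before the RefSeq start, on the gene's own strand. Capitals mark CCAAT on either strand (ATTGG where it lies on the other one), the box bound by the NF-Y factor, and GCGGGAA, a core that E2F factors can bind.
Fanca (chr8:123318577-123318826, minus strand): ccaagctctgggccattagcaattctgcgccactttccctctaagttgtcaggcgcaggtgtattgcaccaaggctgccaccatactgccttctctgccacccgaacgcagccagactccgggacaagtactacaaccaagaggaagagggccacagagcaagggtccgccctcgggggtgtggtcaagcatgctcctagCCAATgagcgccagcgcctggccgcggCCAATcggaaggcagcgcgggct
Rad51ap1 (chr6:126939588-126939837, minus strand): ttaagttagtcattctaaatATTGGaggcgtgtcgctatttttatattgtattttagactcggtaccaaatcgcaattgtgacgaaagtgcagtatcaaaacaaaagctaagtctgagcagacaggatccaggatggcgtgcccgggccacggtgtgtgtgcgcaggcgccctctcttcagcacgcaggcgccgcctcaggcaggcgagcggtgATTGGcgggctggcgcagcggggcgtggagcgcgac
Brca1 (chr11:101551956-101552205, minus strand): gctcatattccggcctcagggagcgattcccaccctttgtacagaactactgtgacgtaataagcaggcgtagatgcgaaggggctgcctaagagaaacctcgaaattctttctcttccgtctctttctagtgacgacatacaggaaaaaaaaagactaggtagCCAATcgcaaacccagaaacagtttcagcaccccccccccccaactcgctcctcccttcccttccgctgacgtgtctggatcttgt
Brca2 (chr5:150522371-150522620, plus strand): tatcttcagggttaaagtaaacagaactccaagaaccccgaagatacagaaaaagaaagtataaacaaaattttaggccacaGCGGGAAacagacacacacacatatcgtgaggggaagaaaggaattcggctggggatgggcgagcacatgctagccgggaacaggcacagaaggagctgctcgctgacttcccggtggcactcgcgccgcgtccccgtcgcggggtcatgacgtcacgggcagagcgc

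The *Fanca* window holds CCAAT 50 and 23 bases before the start, the *Rad51ap1* window holds it 230 and 36 bases before the start on the other strand, and the *Brca1* window holds it 86 bases before the start. In the *Brca2* window GCGGGAA begins 168 bases before the start, and the same bases hold TTTCCCGC on the other strand. CCAAT stood in 4 of the 7 windows, the fourth being that of *Blm*, against 33.8% of the 32817 windows in the table. GCGGGAA stood in 1 of 7 against 3.8% of all, and any of TTTCCCGC, TTTCGCGC, TTTGCCGC and TTTGGCGC in 1 of 7 against 1.9%. TTTGAA, the core of the CHR element found in many genes of mitosis, stood in 0 of 7 against 16.0% of all windows, and in 4 of 7 windows of the cycling cell markers named further on. In those 7 cycling windows CCAAT stood in 7, GCGGGAA in 0 and any of the 4 words from TTTCCCGC to TTTGGCGC in 2. In 16 windows of the end-joining genes, also described further on, CCAAT stood in 4, GCGGGAA in 3, any of those 4 words in 1 and TTTGAA in 0. Both strands were searched, and the words were chosen with the results of the comparisons known. A match describes the letters of a window and shows no binding. The relation of these words to the course of the genes was not tested.

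Libraries held 23316107 to 38965078 counts on genes (median 32742525), so 3 counts stood for 0.0745 to 0.137 CPM. Levels are CPM after scaling by the trimmed mean of M values (TMM) and are given as mean ± SD, and fold changes are log2 values with their standard error (SE) from an edgeR quasi-likelihood fit over the 34 mice, which compared the average of both sexes between ages. A gene was called past 2-fold when edgeR's glmTreat gave a false discovery rate (FDR, Benjamini-Hochberg over all tested genes) below 0.05 against a 2-fold change, and changed when glmQLFTest gave an FDR below 0.05 against no change. The 7 microglia markers summed to 13240 ± 2970 CPM at P6 and reached 31690 ± 6934 CPM at P15 and 34120 ± 3973 CPM in the adult, and 7 of 7 were detected at each age.

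*Brca1* (ENSMUSG00000017146, chr11:101488764-101551955, minus strand, GRCm38), which promotes resection of break ends together with BARD1, was high at P6. Its level ran from 14.6 to 31.7 CPM over the 10 P6 mice with a median of 20.3, from 1.15 to 5.42 CPM with a median of 3.67 over the 12 P15 mice, and from 0.471 to 1.63 CPM with a median of 1.08 over the 12 mice of 8 weeks. The 3 ages were thus stepped, and 8 of the 12 adult mice lay below every P15 mouse. The mean was 21.5 ± 4.65 CPM at P6, 3.50 ± 1.13 at P15 and 1.05 ± 0.367 at 8 weeks. Its log2 fold change was −2.60 (SE 0.197) from P6 to P15 and −1.72 (SE 0.197) from P15 to 8 weeks, with edgeR FDRs against a 2-fold change of 7.51e-09 and 0.00278.

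*Brca2* (ENSMUSG00000041147, chr5:150522630-150570329, plus strand), a mediator of strand exchange, took a different course in the adult. The 10 P6 mice held 10.1 to 21.4 CPM with a median of 13.6, the 12 P15 mice 0.945 to 5.81 CPM with a median of 3.56, and the 12 adult mice 1.24 to 5.33 CPM with a median of 3.07. Adult and P15 mice overlapped over nearly the whole range, and 0 of 12 adult mice lay below all P15 mice. The fold change from P6 to P15 was −1.92 on the log2 scale (SE 0.209, edgeR FDR against 2-fold 0.000198). From P15 to 8 weeks it was −0.24 with a 95% confidence interval of −0.65 to 0.17 and an edgeR FDR of 0.328, so a further fall of more than that lower bound lay outside the interval.

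*Rad51ap1* (ENSMUSG00000030346, chr6:126923050-126939587, minus strand), a stimulator of strand invasion, stepped down at both intervals. It ran from 16.0 to 24.2 CPM at P6, from 2.09 to 5.91 CPM at P15 and from 0.758 to 1.86 CPM at 8 weeks, with medians of 16.7, 3.15 and 1.40 CPM. No adult mouse overlapped with a P15 mouse. It changed by −2.31 on the log2 scale to P15 (SE 0.158) and by −1.36 from P15 to 8 weeks (SE 0.155). The second step was called changed by edgeR (FDR 2.43e-08) and missed the 2-fold threshold (FDR 0.0626).

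*Fanca* (ENSMUSG00000032815, chr8:123268300-123318576, minus strand), a scaffold subunit of the Fanconi core complex, had the largest fitted fall of the 9 from P6 to 8 weeks, −4.84 on the log2 scale (SE 0.144). The P6 mice held 18.4 to 25.1 CPM with a median of 22.3, the P15 mice 2.81 to 4.72 CPM with a median of 4.06, and the adult mice 0.441 to 1.10 CPM with a median of 0.750. The 3 ages did not overlap, and the P6 mice lay close together, with a coefficient of variation of 10.4%. The fall was −2.51 on the log2 scale to P15 (SE 0.128) and −2.33 from P15 to 8 weeks (SE 0.132), both past 2-fold with edgeR FDRs of 2.62e-12 and 2.61e-10. *Zfp276* on the other strand shares 920 exonic bases with *Fanca*, and counting was strand-specific.

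The ID complex subunits parted from each other. *Fancd2* (ENSMUSG00000034023, chr6:113531682-113597017, plus strand) held 14.7 to 21.2 CPM at P6 with a median of 17.1, 2.7 to 5.85 CPM at P15 with a median of 4.88, and 2.98 to 6.25 CPM at 8 weeks with a median of 5.07. Its partner *Fanci* (ENSMUSG00000039187, chr7:79391929-79450264, plus strand) held 12.6 to 18.6 CPM at P6 with a median of 15.5, 1.41 to 3.15 CPM at P15 with a median of 2.30, and 0.330 to 1.07 CPM at 8 weeks with a median of 0.840. Adult and P15 mice therefore shared 1 range for *Fancd2* and did not overlap for *Fanci*. From P15 to 8 weeks *Fancd2* differed by 0.01 on the log2 scale (95% confidence interval −0.25 to 0.28, edgeR FDR 0.939) and *Fanci* fell by 1.63 (SE 0.170, edgeR FDR against 2-fold 0.00256). From P6 to P15 both fell past 2-fold, by 1.85 and 2.68 on the log2 scale with edgeR FDRs of 1.28e-06 and 1.23e-10. Exons of *Fancd2os* overlap *Fancd2* over 257 bases and those of *Polg* overlap *Fanci* over 921 bases, both on the opposite strand.

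**Figure D1:**
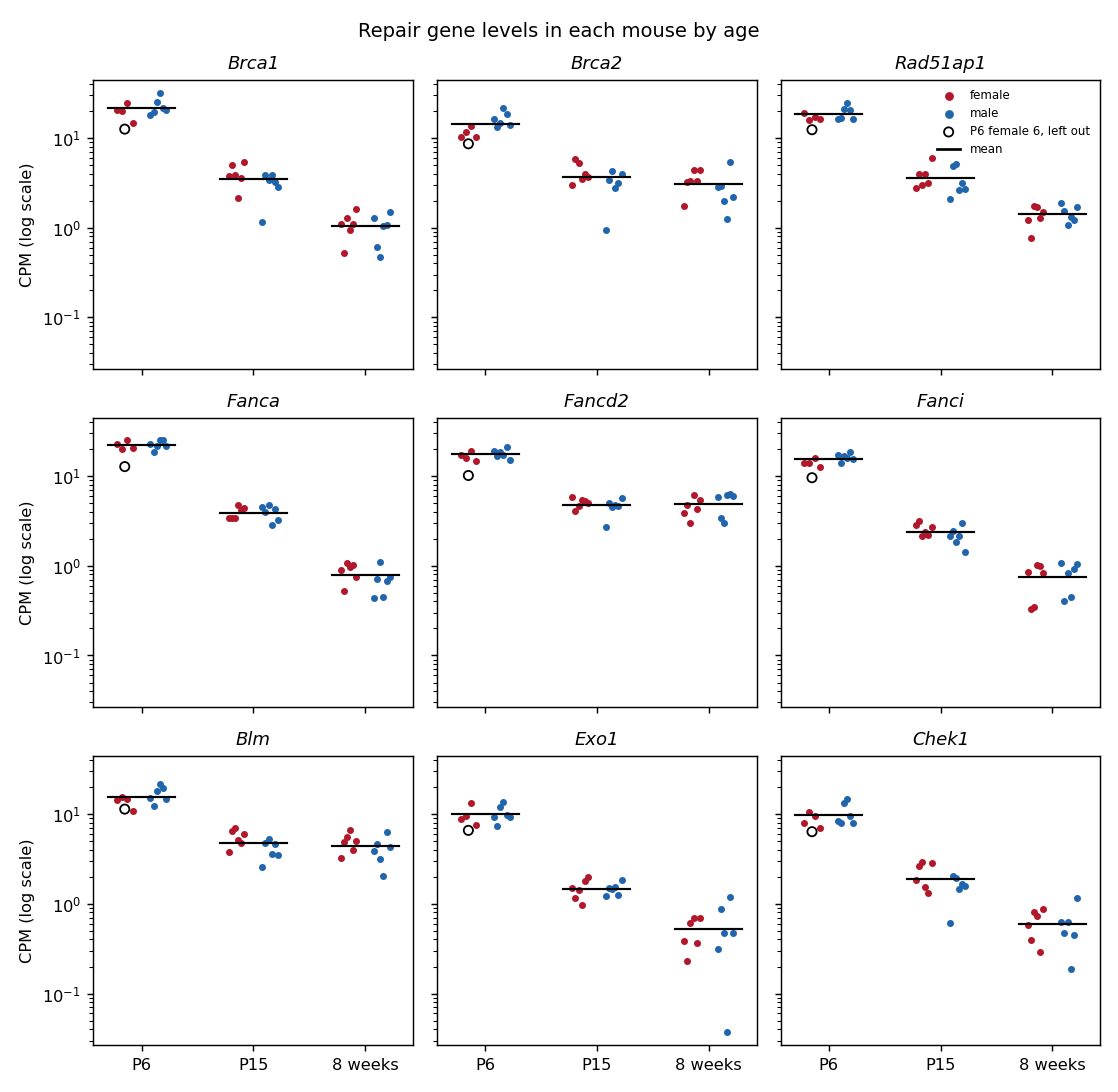
TMM-scaled CPM (log axis) of the 9 genes in each mouse at P6 (10 mice), P15 (12) and 8 weeks (12), with females in red, males in blue, black lines at the age means and an open circle for the P6 female that was left out. Every gene is highest at P6, and the adult points lie at the height of the P15 points for *Brca2*, *Fancd2* and *Blm* and below the P15 mean in all 12 adult mice for the other 6 genes.

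*Blm* (ENSMUSG00000030528, chr7:80454733-80535119, minus strand), the RecQ helicase that is lost in Bloom syndrome, held 10.9 to 21.4 CPM at P6 with a median of 14.9. It held 2.60 to 6.95 CPM at P15 and 2.06 to 6.63 CPM at 8 weeks, with medians of 4.71 and 4.45 CPM, so that the later ages overlapped and only 1 of 12 adult mice lay below all P15 mice. It fell by 1.68 on the log2 scale from P6 to P15 (SE 0.157, edgeR FDR against 2-fold 0.000212). From P15 to 8 weeks the difference was −0.09 with a 95% confidence interval of −0.40 to 0.21 and an edgeR FDR of 0.626. *Exo1* (ENSMUSG00000039748, chr1:175880581-175913489, plus strand), the 5′ to 3′ exonuclease of long-range resection, held 7.28 to 13.6 CPM at P6, 0.957 to 2.0 CPM at P15 and 0.0375 to 1.2 CPM at 8 weeks, with medians of 9.30, 1.47 and 0.470 CPM. The adult range overlapped the P15 range through 1 mouse, since 11 of 12 adult mice lay below all P15 mice. The lowest adult value, in male 4, was a single count and lay under the level of 3 counts, so *Exo1* was not measured in that mouse. It fell by 2.75 on the log2 scale to P15 (SE 0.239, edgeR FDR against 2-fold 6.07e-08) and by 1.46 from P15 to 8 weeks (SE 0.243), which was called changed (edgeR FDR 1.38e-05) and not past 2-fold (FDR 0.150).

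*Chek1* (ENSMUSG00000032113, chr9:36708482-36727065, minus strand) held 6.93 to 14.6 CPM at P6, 0.608 to 2.91 CPM at P15 and 0.188 to 1.15 CPM at 8 weeks, with medians of 8.86, 1.74 and 0.602 CPM. Of the adult mice, 6 of 12 lay below all P15 mice, and the lowest P15 mouse, male 1, stood at the adult median. The fall was −2.35 on the log2 scale to P15 (SE 0.220, edgeR FDR against 2-fold 1.49e-06) and −1.61 from P15 to 8 weeks (SE 0.225, edgeR FDR against 2-fold 0.0280).

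From P6 to P15, 9 of 9 members were lower past 2-fold, against a background of 4.85% of all tested genes. Lower without a fold threshold were 9 of 9 against 31.4%, and 9 of 9 had no overlap between the ages against 7.72%. From P6 to 8 weeks 9 of 9 were lower past 2-fold against 12.4%, 9 of 9 were lower without a threshold against 36.6%, and 9 of 9 did not overlap against 14.8%. The median log2 fold change of the members was −2.35 at P15 and −3.96 at 8 weeks, where that of all tested genes was −0.01 and 0.04. From P15 to 8 weeks 4 of 9 were lower past 2-fold (*Brca1*, *Fanca*, *Fanci* and *Chek1*) against 3.07%, 6 of 9 were lower without a threshold against 23.9%, and 3 of 9 (*Rad51ap1*, *Fanca* and *Fanci*) did not overlap against 1.72%. The count of 4 past 2-fold was 2 with limma-voom (*Fanca* and *Fanci*) and 1 with the mean log2 level of neural markers as a covariate (*Fanca*), and the call of *Chek1* was also lost with DESeq2 and when only the compared ages were fitted, which left 3 of 9.

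**Figure D2:**
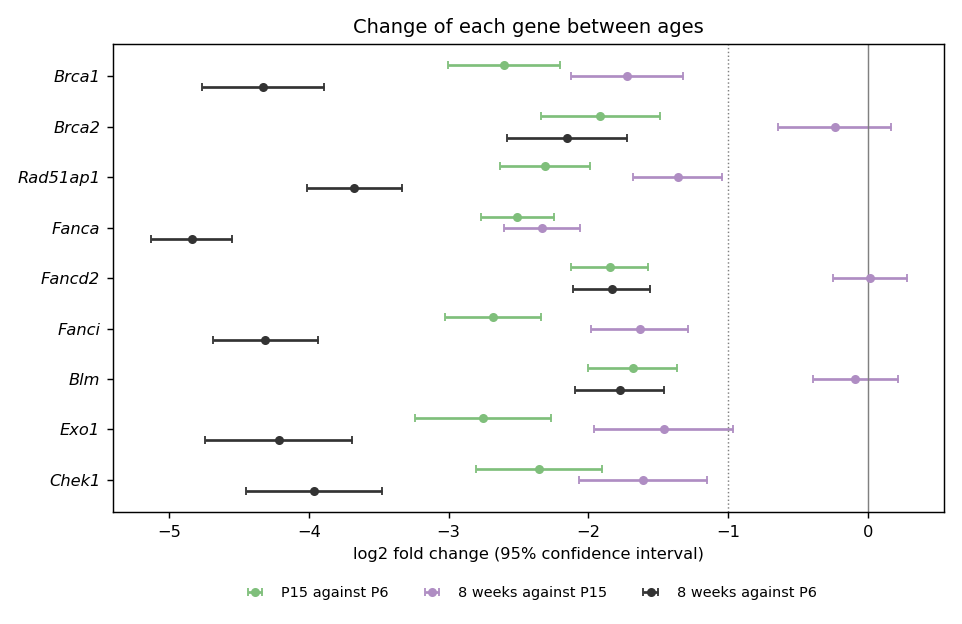
Log2 fold change of each gene between ages from the edgeR fit over 34 mice, with bars for 95% confidence intervals, a solid line at no change and a dotted line at a 2-fold fall. Intervals of P15 against P6 and of 8 weeks against P6 lie left of the dotted line for all 9 genes, and those of 8 weeks against P15 cross the solid line for *Brca2*, *Fancd2* and *Blm*.

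Whether the fall was steeper before or after P15 was tested as the difference between the steps within the same edgeR fit. The first step was larger for 7 of 9 members, which gives a positive difference, and 15.8% of all tested genes had a called positive difference. That share is not limited to genes that fell, since a larger rise after P15 also gives a positive difference. The difference was largest for *Fancd2*, at 1.86 on the log2 scale (SE 0.235, edgeR FDR 2.47e-07), followed by *Brca2* at 1.68 (SE 0.360) and *Blm* at 1.59 (SE 0.269), with FDRs of 0.000488 and 2.49e-05. It was 1.29 for *Exo1* (FDR 0.0158), 1.05 for *Fanci* (FDR 0.00530), 0.95 for *Rad51ap1* (FDR 0.00621) and 0.88 for *Brca1* (FDR 0.0413), again by edgeR. For *Fanca* it was 0.18, with a 95% confidence interval of −0.28 to 0.63 and an edgeR FDR of 0.581, and for *Chek1* 0.75, with an interval of −0.03 to 1.52 and an FDR of 0.134. The steps span different lengths of time, and they were compared as steps and not as rates. The call for *Exo1* was lost with limma-voom (1.04, FDR 0.0666). The call for *Brca1* was lost in 6 of 14 alternatives, among them without P6 female 1 or 3 (FDRs 0.0532 and 0.0637) and without P15 male 1 (FDR 0.0706).

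**Figure D3:**
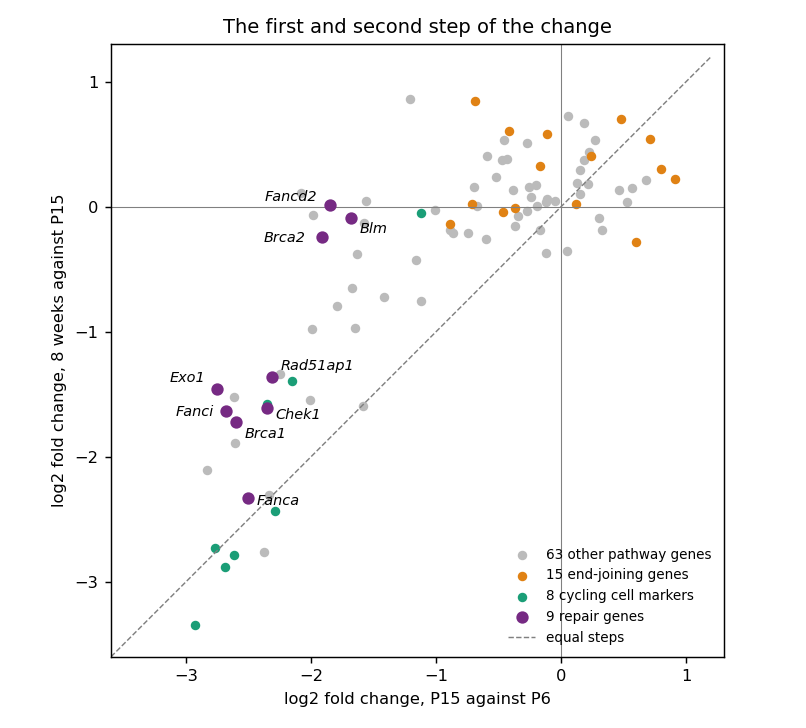
Log2 fold change from P6 to P15 (horizontal) against that from P15 to 8 weeks (vertical) for the 9 repair genes (purple, named), 63 other genes of the same pathways (grey), 15 end-joining genes (orange) and 8 cycling cell markers (green), with a dashed line where both steps are equal. *Fanca* lies nearest the dashed line among the 9, and *Brca2*, *Fancd2* and *Blm* lie by the horizontal line of no later change.

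Per length, as CPM per kilobase of exon, the order of the levels changed with age. At P6 the order was *Rad51ap1* (3.79 ± 0.572), *Fanci* (2.66 ± 0.308), *Fanca* (2.55 ± 0.265), *Brca1* (2.52 ± 0.545), *Fancd2* (2.19 ± 0.245), *Chek1* (2.08 ± 0.539), *Blm* (1.78 ± 0.358), *Exo1* (1.18 ± 0.264) and *Brca2* (1.05 ± 0.261). Of the 8 neighbouring pairs at P6, *Rad51ap1* over *Fanci* and *Blm* over *Exo1* differed in the same direction in 10 of 10 mice, and the pair of *Fanci* and *Fanca* in 6 of 10. At 8 weeks *Fancd2* (0.610 ± 0.163) and *Blm* (0.507 ± 0.150) led, above *Rad51ap1* (0.292 ± 0.0671) and *Brca2* (0.224 ± 0.0875), and *Fanca* (0.0893 ± 0.0267) and *Exo1* (0.0627 ± 0.0368) came last. *Blm* exceeded *Rad51ap1* in 11 of 12 adult mice, while *Fanci* (0.131 ± 0.050), *Chek1* (0.130 ± 0.0582) and *Brca1* (0.123 ± 0.0430) were within their spread of each other, each above the next in 7 of 12 mice.

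The ratio of *Fanci* to *Fancd2* was examined after their values had been seen. The log2 ratio of their levels per length was 0.28 ± 0.088 at P6 (SD, n = 10), −0.57 ± 0.448 at P15 (n = 12) and −2.29 ± 0.615 at 8 weeks (n = 12). In the geometric mean, *Fanci* was thus 1.22 times *Fancd2* at P6, and *Fancd2* was 1.48 times *Fanci* at P15 and 4.88 times at 8 weeks. P6 mice ran from 0.17 to 0.48 and adult mice from −3.39 to −1.40, while 1 P15 mouse, at −1.55, lay within the adult range. The 3 differences between ages (−0.85, −2.57 and −1.72) are given as a description with no test, since the pair was chosen for them.

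**Figure D4:**
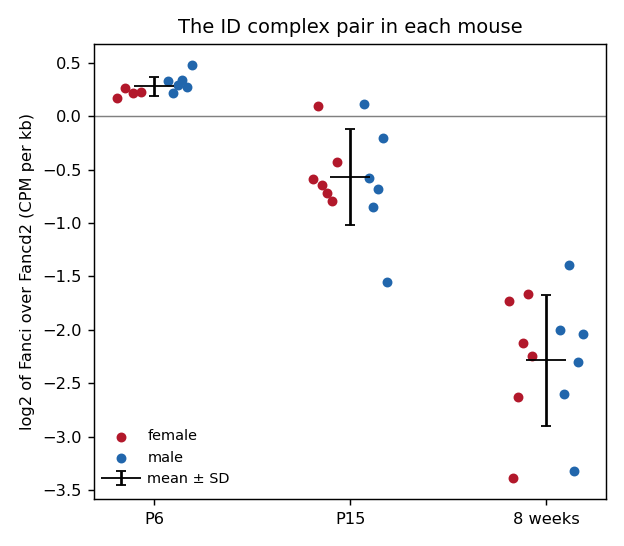
Log2 ratio of *Fanci* to *Fancd2*, each as CPM per kilobase of exon, in each mouse by age, with females in red, males in blue and black bars for mean ± SD. The 10 P6 mice lie above 0 and the 12 adult mice lie between −3.39 and −1.40.

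No member was called different between the sexes. At P6, 0 of 9 were called by edgeR (0.0511% of all tested genes were called), at P15 0 of 9 (0.0681%) and at 8 weeks 0 of 9 (0.114%), and 0 of 9 differed between the sexes in their change from P6 to 8 weeks (0% of all genes). At an unadjusted p under 0.05 the edgeR fit gave 0, 1, 0 and 0 members in these 4 comparisons, the member being *Blm* at P15. In the same fit 1250, 3200, 518 and 898 of the 17612 tested genes had such a p. limma-voom and DESeq2 also called 0 of 9 in each, and at an unadjusted p under 0.05 limma-voom gave 1, 0, 0 and 1 (*Brca2*) and DESeq2 0, 1, 0 and 0 (*Blm*). The log2 difference of *Blm*, males minus females at P15, was −0.44 with a 95% confidence interval of −0.87 to −0.01, from means of 4.05 ± 0.985 CPM in males and 5.50 ± 1.2 CPM in females (SD, n = 6 each). *Brca2* at P6 was 16.2 ± 3.18 CPM in 6 males and 11.4 ± 1.59 CPM in 4 females, a log2 difference of 0.51 with an interval of −0.12 to 1.14. These intervals are wide enough that sex differences below 2-fold would have been missed for several members.

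Around the members stand 63 other genes of the same pathways, all of which were tested. From P6 to 8 weeks 20 of 63 were lower past 2-fold, where 12.4% of all tested genes were, and 0 were higher past 2-fold, where 11.5% were. Without a threshold 35 were lower (36.6% of all genes were), 14 were higher (37.8% of all) and 14 did not pass. Their median log2 fold change was −0.35, against −3.96 for the members. Both lists were chosen with earlier results of these data known, so this contrast is a description and no test. From P6 to P15 17 of 63 were lower past 2-fold, against 4.85% of all tested genes, and from P15 to 8 weeks 7 of 63, against 3.07%. The roles are described one by one and were not tested against each other.

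Of 11 other genes of the Fanconi core complex and its E2 enzyme, 1 was lower past 2-fold. This was *Ube2t*, the ubiquitin-conjugating enzyme that modifies FANCD2 and FANCI, which went from 7.94 ± 0.634 CPM at P6 to 2.63 ± 0.496 at P15 and 0.870 ± 0.250 at 8 weeks. Its log2 fold change to 8 weeks was −3.18 (SE 0.147, edgeR FDR against 2-fold 1.59e-15). Without a threshold 5 of the 11 were lower, 1 was higher (*Fance*, by 0.39) and 5 did not pass, among them *Faap20*, a core complex subunit at 22.3 ± 2.43 CPM at P6 and 22.1 ± 3.81 at 8 weeks. Among 8 genes for the removal of ubiquitin from the ID complex and for cutting crosslinks, 2 were lower past 2-fold, the deubiquitinase *Usp1* (−1.52) and *Eme1* (−4.65), a partner of the nuclease MUS81. *Eme1* stood at 6.91 ± 0.760 CPM at P6 and at 0.280 ± 0.267 CPM at 8 weeks, where 5 of 12 mice were at or under 3 counts, so its fold change rests on counts near the floor. *Ercc1*, subunit of the XPF nuclease, showed a log2 difference of −0.09 (edgeR FDR 0.421).

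The group of strand exchange factors, mediators and BRCA1 partners gave the most calls, with 9 of 20 lower past 2-fold from P6 to 8 weeks and 16 of 20 lower without a threshold. *Rad54l*, a DNA translocase of the strand exchange step, fell by 4.14 on the log2 scale from P6 to 8 weeks, *Brip1*, the helicase that binds BRCA1, by 3.59, and *Bard1*, the obligate partner of BRCA1, by 2.58. *Palb2*, which links BRCA1 to BRCA2, fell by 0.50 (edgeR FDR 0.000889), and *Swsap1* differed by −0.05 (FDR 0.669). *Rad51d* and *Rad52* were the 2 of 20 that rose, by 0.44 and 0.56.

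Among 5 genes of end resection 1 was lower past 2-fold, the nuclease and helicase *Dna2* (−2.33, from 23.1 ± 4.25 to 4.56 ± 0.962 CPM), and *Nbn*, of the MRN complex that senses breaks, differed by −0.05 (edgeR FDR 0.731). Of 7 genes that work with BLM or resolve joined molecules, 2 were lower past 2-fold. *Rmi2*, a subunit of the BLM complex, was at 5.58 ± 0.741 CPM at P6 and at 0.169 ± 0.141 CPM at 8 weeks, a log2 fold change of −5.14 that likewise rests on few counts, with 5 of 12 adult mice at or under 3 counts. The other subunits rose, *Top3a* by 0.90 and *Rmi1* by 0.85 (edgeR FDRs 6.32e-09 and 3.32e-06), while *Blm* itself fell. In the ATR and CHK1 checkpoint 5 of 12 were lower past 2-fold, led by *Clspn*, the adaptor through which ATR activates CHK1, at 23.6 ± 3.11 CPM at P6, 3.82 ± 1.2 at P15 and 1.02 ± 0.458 at 8 weeks. The kinase *Atr* differed by 0.23 (edgeR FDR 0.290), and *Rad9a* and *Rad1*, of the clamp with *Hus1*, rose by 0.71 and 0.56, where *Hus1* differed by 0.00 (FDR 0.980).

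Genes of non-homologous end joining, the repair route that needs no sister chromatid, were not called in either direction past 2-fold in the main fit. *Polm* was called higher past 2-fold at 8 weeks than at P6 with all 35 mice and when only the compared ages were fitted (edgeR FDRs 0.0312 and 0.0487). Of 15 tested, 0 were lower and 0 higher past 2-fold from P6 to 8 weeks by edgeR, 11 had an unadjusted p under 0.05, 4 were lower without a threshold and 7 higher, and the median was 0.19. Of the 17612 tested genes, 13357 had an unadjusted p under 0.05 by edgeR in this comparison. Over all tested genes 12.4% were lower and 11.5% higher past 2-fold, and 36.6% lower and 37.8% higher without a threshold. The counts without a threshold were thus near the background. The largest change was a rise of *Lig4*, the ligase that seals the ends, from 3.34 ± 0.559 CPM at P6 to 5.41 ± 1.81 at P15 and 7.82 ± 2.04 at 8 weeks, a log2 fold change of 1.26 (SE 0.178, edgeR FDR 1.88e-07, against 2-fold 0.0872). The smallest was that of *Poll*, a gap-filling polymerase, at 0.14 (FDR 0.166). Of 6 genes of ATM signalling at breaks 1 was lower past 2-fold, *H2afx*, the histone variant phosphorylated around breaks, which fell from 94.0 ± 7.39 to 11.6 ± 1.82 CPM (log2 fold change −3.03, SE 0.102). *Atm* itself differed by −0.08 (edgeR FDR 0.758) between P6 and 8 weeks, from 21.0 ± 6.63 to 19.1 ± 7.11 CPM. At P15 it stood lower, at 12.1 ± 5.17 CPM. Its log2 fold change was −0.80 from P6 to P15 and 0.72 from P15 to 8 weeks (edgeR FDRs 0.0032 and 0.00765). The difference between the lists was not tested.

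The markers of cycling cells fell with the members. All 8 (*Mki67*, *Top2a*, *Pcna*, *Ccna2*, *Ccnb1*, *Cdk1*, *Mcm2* and *Mcm5*) were lower past 2-fold at 8 weeks than at P6, with log2 fold changes from −1.17 (*Pcna*) to −6.27 (*Ccnb1*) and a median of −5.06. Their summed level was 1212 ± 137 CPM at P6, 286 ± 32.8 at P15 and 156 ± 14.1 at 8 weeks. By the same edgeR test the first step was larger for 3 of 8, where 15.8% of all genes, rising ones included, had a called positive difference. These were *Pcna* by 1.06, *Mcm2* by 0.76 and *Mcm5* by 0.77 on the log2 scale (FDRs 1.79e-06, 0.00225 and 0.00376). For the other 5 no difference between the steps was called. Their part in the fall of the members was not tested.

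The genes with the profile nearest to each member were sought among the tested genes outside the 9. They were those with the smallest root mean square difference of centred log2 CPM over the 34 mice. Other members were left out of this search. For *Fanca*, *Rad51ap1*, *Fanci*, *Chek1*, *Brca1* and *Exo1* these were genes of mitosis: *Knstrn* (0.31), *Ckap2l* (0.31), *Bub1b* (0.41), *Kif15* (0.41), and *Kif23* for both *Brca1* (0.43) and *Exo1* (0.56). *Knstrn*, *Ckap2l* and the kinesins act on the spindle or in cytokinesis, and *Bub1b* in the spindle checkpoint. The nearest for *Brca2* was *Pola1* (0.25) and for *Fancd2* *Prim2* (0.33), both subunits of the DNA polymerase alpha and primase complex, and for *Blm* it was *Topbp1* (0.20), the activator of ATR. The mean of the 9 profiles was nearest to *Diaph3* (0.28), *Prim1* (0.30), *Ezh2* (0.31), *Ercc6l* (0.31) and *Wdhd1* (0.32), followed by *Lpl*, *Mcm6*, *Lmnb1* and *Tacc3*. The points share their libraries and all differ by age, and the likeness is a description.

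Transcripts of other cell types moved with age as well, in different directions. The 9 markers of neural progenitors and immature neurons, of which the progenitors divide in the young brain, summed to 1456 ± 519 CPM at P6 (range 661 to 2037), 382 ± 218 at P15 (124 to 845) and 113 ± 31.9 at 8 weeks (89.0 to 206), and 9 of 9 were lower past 2-fold at 8 weeks than at P6. The 6 neuron markers summed to 629 ± 225, 339 ± 186 and 120 ± 57.3 CPM (ranges 276 to 926, 89.5 to 693 and 48.4 to 212), and 3 of 6 were lower past 2-fold at 8 weeks than at P6, while from P6 to P15 2 of 6 were higher and 2 of 6 lower without a threshold. The 5 astrocyte markers summed to 630.2 ± 180, 1471 ± 642 and 1350 ± 446 CPM, with 1 of 5 higher and 0 of 5 lower past 2-fold at 8 weeks than at P6 (3 higher and 1 lower without a threshold). The 7 oligodendrocyte lineage markers summed to 577 ± 179, 1538 ± 699 and 680.4 ± 382 CPM, with 2 of 7 higher and 2 of 7 lower past 2-fold (3 higher and 4 lower without a threshold). No marker of these 4 lists was at 0 in all mice of an age. The 9 monocyte and macrophage markers summed to 1039 ± 246, 808 ± 207 and 487 ± 93.3 CPM, with 2 of 9 lower and 2 of 9 higher past 2-fold at 8 weeks than at P6. The 6 neutrophil and lymphocyte markers summed to 18.2 ± 8.38, 31.0 ± 17.4 and 87.1 ± 60.4 CPM, and 4 of the 5 tested were higher past 2-fold at 8 weeks than at P6. The part of these cells in the levels of the members was not tested. With the mean log2 CPM of the neural markers as a covariate, 9 of 9 members stayed lower past 2-fold at P15 and 9 of 9 at 8 weeks than at P6. Since that covariate ran from 4.75 to 6.47 at P6 and from 1.83 to 3.43 at 8 weeks, neural RNA and age cannot be told apart between those ages by it.

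The P6 female left out had the most neural RNA and less of most members. Scaled together with the other 34 mice, its neural progenitor sum was 2315 CPM, its neuron sum 1528 CPM and its microglia sum 4809 CPM. The first pair lay above and the last below every other P6 mouse as scaled without it. For 8 of 9 members it lay below every other P6 mouse, the exception being *Blm* (11.3 CPM, where the lowest other mouse had 11.1). Its members stood at 56.3% (*Fanca*) to 72.1% (*Blm*) of the mean of the other P6 mice. Its cycling marker sum was 642 CPM, against 1031 to 1416 CPM in the others as scaled without it. The part of neural RNA in its low levels was not tested.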

How the data were processed

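The authors isolated CD45+ cells by immunopanning, made directional libraries and ran them paired-end on an MGISEQ2000-RS instrument. Reads were trimmed with fastp 0.20.0 per the submitters' processing notes, aligned to GRCm38/mm10 with STAR and assigned to genes with featureCounts with strand taken into account. The deposited values are raw counts, with 1 column for each of 35 mice, not filtered or normalised. Genes were named and placed with GENCODE M21, which may not be the authors' release: 55141 of 55401 identifiers had a name there.

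Age effects were fitted with edgeR 4.0.16 in R 4.3.3 (glmQLFit, robust, with 1 mean for each of 6 age and sex groups and TMM scaling). limma 3.58.1 and DESeq2 1.42.0 served as alternatives. Python 3.11.15 with pandas 2.3.3 and matplotlib 3.10.9 was used for levels and figures. Tests were two-sided. The filter on low counts asked for 0.5 CPM or more in 5 or more mice, and log2 CPM used a prior count of 2. The script was tested on simulated data. The members and gene lists were chosen with earlier results of these data known. Named genes were the members, the genes with the largest and the smallest change in each role, the cycling markers, the nearest profiles and the genes overlapping a member on exons; *Usp1*, *Fance*, *Rad54l*, *Brip1*, *Bard1*, *Palb2*, *Rad51d*, *Rad52*, *Top3a*, *Rmi1*, *Atr*, *Rad9a* and *Rad1* were added after their values were seen, and 2 genes within the rule are not reported here. Each mouse is a separate animal. No library was a copy of another: chi-square per gene was at least 11.8 in the 85 pairs within groups. Limits of counting cover counting error only, since PCR copies could not be told from molecules. Alternatives were another scaling, tool, filter or sample set, a replicate block and a neural marker covariate.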

Additional observations from a re-analysis of the deposited data

Results flagged for a closer look

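For each of the 9 genes, the lowest and the highest mouse were checked for a gap to the others in the 6 groups of 1 age and sex and in the 10 P6 mice as a whole, on log2 CPM, and 5 of these 63 checks found a mouse set apart by Dixon's ratio above its 95% critical value (0.625 for 6 mice). Chance flags about 1 in 20 groups, and the P6 mice were checked in overlapping groups. In 4 of the 5 the mouse was P15 male 1. It had the lowest level of *Brca1* (ratio 0.751, with 1.15 CPM against 2.87 to 3.87 CPM in the other P15 males), of *Chek1* (0.702, with 0.608 CPM against 1.44 to 2.06), of *Brca2* (0.697, with 0.945 CPM against 2.73 to 4.30) and of *Fancd2* (0.695, with 2.7 CPM against 4.54 to 5.69). The fifth was 8-week female 1, lowest for *Brca2* (0.663, with 1.73 CPM against 3.20 to 4.36 in the other females of that age).

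P15 male 1 also had the highest summed level of neural progenitor markers (845 CPM, others of that age 124 to 668), of neuron markers (693 CPM, others 89.5 to 615) and of oligodendrocyte lineage markers (3252 CPM, others 802 to 2339), and the lowest of cycling markers (217 CPM, others 240.0 to 330.0) and of monocyte and macrophage markers (289 CPM, others 646 to 1031). Likewise 8-week female 1 had the highest neural progenitor sum (206 CPM, others 89.0 to 132) and the lowest microglia sum (28500 CPM, others 29440 to 42580) of its age. The part of these sums in the low levels was not tested. Without P15 male 1, a choice made after its values were seen, 9 of 9 members stayed lower past 2-fold at P15 than at P6, 5 of 9 instead of 4 were lower past 2-fold from P15 to 8 weeks (*Rad51ap1* was added, FDR 0.0175), and the difference between the steps of *Brca1* fell from 0.88 to 0.70 on the log2 scale with an edgeR FDR of 0.0706.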

How the results depend on the processing

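Over the alternatives, 193 of 197 values of counts stayed within 1.5 times the main count or at 0, and 4 moved. Members lower past 2-fold from P15 to 8 weeks were 4, against 2 with limma-voom and 1 with the neural marker covariate. End-joining genes past 2-fold from P6 to 8 weeks were 0, against 1 with all 35 mice and 1 when only the compared ages were fitted, the gene being *Polm* (log2 fold change 1.15 and 1.12, FDR 0.0312 and 0.0487), which was named after its values were seen. The causes of these moves were not tested. Of the 4 members lower past 2-fold from P15 to 8 weeks, *Chek1* also lost its call with DESeq2 and with only the compared ages fitted (3 of 9 left), and *Chek1* was not tested when 10 counts were asked of every mouse. Of 550 fold changes of single members, tested against no change, 543 kept their side of the threshold, and their direction apart from *Fancd2* between P15 and 8 weeks, not called in any fit, which lay below 0 in 7 alternatives (down to −0.33 with the neural marker covariate, FDR 0.179). The other 7 lost their call, all of the difference between steps: *Brca1* with all 35 mice (0.84, FDR 0.0529), limma-voom (0.92, FDR 0.0537), no filter on low counts (0.86, FDR 0.0717), without P6 female 1, 3 or P15 male 1 (0.87, 0.83 and 0.70), and *Exo1* with limma-voom (1.04, FDR 0.0666). Requiring at least 10 counts in every mouse left out 2 members, and 7 of 7 remaining were lower past 2-fold at 8 weeks than at P6. Scaling by library size without TMM moved the median log2 fold change of all genes from 0.04 to −0.10, which is small beside the changes of the members. Replicate numbers do not pair the mice, which are different animals: deviations of 80 same-numbered pairs correlated with a median r of 0.03 (27 over 0.1). With the replicate number as a block the members lower past 2-fold were 9, 9 and 4 of 9 in the 3 age comparisons and no call changed. In the adult, levels of *Exo1*, *Chek1*, *Fanci* and *Fanca* rest on 1 to 37 counts per mouse, which limits their precision. The ratio of *Fanci* to *Fancd2* kept its direction with all 35 mice, without each P6 female in turn and without P15 male 1.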
